A study of Mus musculus with 4 samples.

Results

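Dense clusters of distal RBPJ regions were described in alveolar macrophages (AMs), which live in the airspace of the lung and clear surfactant and inhaled particles. RBPJ was profiled by HT-ChIPmentation, a chromatin immunoprecipitation in which the sequencing adapters are inserted by a transposase on the beads, so that small aliquots of sorted cells suffice. The AMs were lavaged from the lungs of WT mice of the C57BL/6J strain at 9 weeks of age, with no other allele or treatment. The series held 2 RBPJ libraries (replicates 1 and 2) and 2 input libraries, which entered only through the authors' peak calling, and no label says whether each library is a separate animal or pool. The clusters were defined by the positions of the peaks in both lists, so their existence, their number of regions and their spacing are a description and were not tested. A consensus region was an interval of overlapping peaks with at least 1 peak of each library, a distal region was a consensus region whose midpoint lay more than 1 kb from every annotated transcription start site (TSS), and distal regions separated by at most 12500 bp were joined into a chain. A chain of 4 or more distal regions was called a cluster, and clusters were ranked by their number of regions and then by the bases these covered.

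The lists of replicates 1 and 2 held 106228 and 47224 peaks, which gave 25454 consensus regions, of which 15678 were distal. These distal regions formed 7150 chains, and 1071 of the chains (14.98%) were clusters. The clusters held 6885 distal regions, which were 43.9% of all distal regions (95% Wilson interval, 43.1 to 44.7%, for counting error only) and 50.4% of the bases in them. The reference for each comparison was the set of the other 8793 distal regions, which lay alone or in chains of 2 or 3. The labelled cell type was checked against its markers. A consensus region lay within 1 kb of a TSS at 9 of 10 AM markers, but at 1 of 5 markers each of lymphocytes, alveolar type II cells, endothelial cells and neutrophils, against 34.7% of all protein-coding genes.

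RBPJ is the DNA-binding protein of the Notch pathway. It recognises short sites built around the letters TGGGAA, holds co-repressors at them when the pathway is silent, and recruits the Notch intracellular domain and Mastermind coactivators once a ligand has released that domain. Distal regulatory elements often lie in groups around genes that a cell type expresses strongly, and such groups are bound by many transcription factors at once. In macrophages the lineage factor PU.1, together with C/EBP and AP-1 factors, opens most of these elements.

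The sequences below are shown because they are the most enriched point of each of the 6 clusters with most regions. Each is the 200 bp around the summit of the region with the highest lower fold, that is, the smaller of the fold enrichments over input in the 2 libraries. They are given 5' to 3' on the plus strand of mm10, read from the RefSeq copy of that build. Capitals mark matches on either strand to the letters of RBPJ (TGGGAA), PU.1 (GAGGAAGT), C/EBP (TTGCNNAA), AP-1 (TGANTCA) or RUNX (TGTGGTT), none of which contains another, and a window with no capitals holds none of the 5.
Cd9: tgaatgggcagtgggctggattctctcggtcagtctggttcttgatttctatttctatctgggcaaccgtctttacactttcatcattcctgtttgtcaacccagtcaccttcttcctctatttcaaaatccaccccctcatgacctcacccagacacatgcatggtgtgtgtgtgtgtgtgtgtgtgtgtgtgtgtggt
Abcg1: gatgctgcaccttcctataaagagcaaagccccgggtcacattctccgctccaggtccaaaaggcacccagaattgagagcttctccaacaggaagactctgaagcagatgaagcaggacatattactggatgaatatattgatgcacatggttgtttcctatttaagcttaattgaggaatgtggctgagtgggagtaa
Cd44: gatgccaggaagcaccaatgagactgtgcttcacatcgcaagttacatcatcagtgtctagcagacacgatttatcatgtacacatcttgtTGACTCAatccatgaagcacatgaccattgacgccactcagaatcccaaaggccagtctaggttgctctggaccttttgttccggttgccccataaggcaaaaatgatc
Tcf7l2: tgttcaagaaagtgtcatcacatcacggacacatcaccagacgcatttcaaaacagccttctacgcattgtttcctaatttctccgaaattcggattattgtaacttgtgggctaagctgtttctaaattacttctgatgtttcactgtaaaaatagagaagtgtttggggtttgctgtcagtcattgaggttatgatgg
Tmem189: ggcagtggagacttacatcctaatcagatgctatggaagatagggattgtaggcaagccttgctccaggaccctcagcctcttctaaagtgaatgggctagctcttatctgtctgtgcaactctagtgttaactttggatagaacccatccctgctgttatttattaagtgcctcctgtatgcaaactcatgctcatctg
Lrrfip1: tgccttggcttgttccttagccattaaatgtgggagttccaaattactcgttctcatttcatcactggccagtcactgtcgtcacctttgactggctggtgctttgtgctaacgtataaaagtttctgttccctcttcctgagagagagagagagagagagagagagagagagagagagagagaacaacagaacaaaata
The only capitals stand in the Cd44 window, where an AP-1 match lies beside the summit, and no window of the 6 holds the RBPJ letters. The Cd9 window ends in a run of alternating G and T, and the Lrrfip1 window holds a run of alternating G and A. These windows lie at chr6:125445496-125445695 (Cd9, intergenic), chr17:31073613-31073812 (Abcg1, intron), chr2:102887599-102887798 (Cd44, intron), chr19:55820333-55820532 (Tcf7l2, intron), chr2:167777141-167777340 (Tmem189, intergenic) and chr1:91046327-91046526 (Lrrfip1, intron).

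The second set shows where the longer RBPJ letters GTGGGAA do occur. For the clusters ranked 1, 3 and 5 it gives the most enriched region with a match, chosen after the values were seen, and capitals mark that match on either strand.
Cd9: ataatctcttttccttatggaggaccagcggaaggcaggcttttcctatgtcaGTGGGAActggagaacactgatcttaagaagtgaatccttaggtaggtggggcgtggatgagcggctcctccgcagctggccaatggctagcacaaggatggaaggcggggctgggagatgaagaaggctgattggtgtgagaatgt
Cd44: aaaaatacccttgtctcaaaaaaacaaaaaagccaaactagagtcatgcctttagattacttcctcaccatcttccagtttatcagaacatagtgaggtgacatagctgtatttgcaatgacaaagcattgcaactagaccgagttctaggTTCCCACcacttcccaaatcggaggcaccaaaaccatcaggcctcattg
Tmem189: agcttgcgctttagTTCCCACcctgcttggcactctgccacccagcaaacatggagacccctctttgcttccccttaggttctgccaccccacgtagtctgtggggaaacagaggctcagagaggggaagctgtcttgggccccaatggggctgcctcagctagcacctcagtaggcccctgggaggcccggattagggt
The windows lie at chr6:125533301-125533500, chr2:102877567-102877766 and chr2:167747417-167747616, again on the plus strand of mm10. In the Cd9 cluster the match is centred at -44 bp from the summit of the region that ranks 3 of 46 by lower fold, an intergenic region at -13757 bp from the TSS of Vwf. In the Cd44 cluster it stands 54 bp from the summit of the region that ranks 2 of 32, in an intron of Cd44, the receptor for hyaluronan. In the Tmem189 cluster it stands at -83 bp from the summit of the region that ranks 13 of 29. Thus in the Cd9 and Cd44 clusters the most enriched region with these letters was close to the top of its cluster, whereas in the Tmem189 cluster it was not. Each was the best of several, since 2, 3 and 4 regions of these clusters held the letters. The clusters of Abcg1, Tcf7l2 and Lrrfip1 also had such regions (1, 1 and 2), which are not shown. These examples do not link the letters to enrichment.

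The clusters were mostly small, and a few were very large. A cluster had a median of 5 distal regions (lowest 4, highest 46), spanned a median of 18.4 kb (2.73 to 124 kb) and had a median of 27.4% of its span covered by regions. Clusters of exactly 4 regions numbered 383 (35.8% of clusters), whereas 140 clusters (13.1%) had 10 or more regions and held 1922 of the cluster regions (27.9%). Only 14 clusters reached 20 regions. The median gap between neighbours within a cluster was 1424 bp, far under the 12500 bp that the rule allowed, although a gap of 12499 bp was also present. On the autosomes, the share of distal regions that lay in clusters ran between 37.2% on chromosome 13 and 55.7% on chromosome 19, and on the X chromosome it was 13.2% (18 of 136 distal regions, in 3 clusters).

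**Figure D1:**
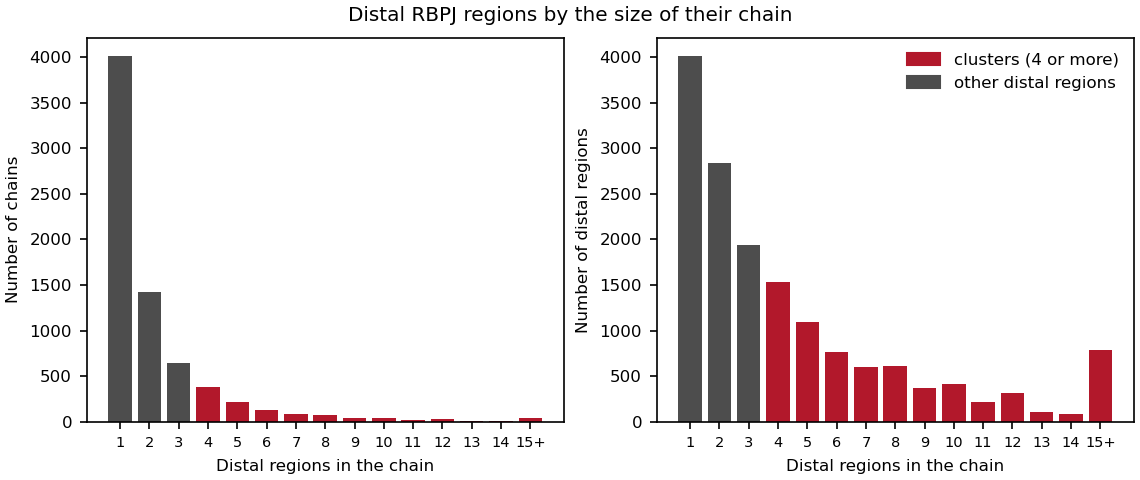
Number of chains (left) and number of distal RBPJ regions (right) by the number of distal regions in the chain. Red bars are clusters of 4 or more regions and grey bars the other distal regions. Chains of 1 region are the most frequent (4012), and the bar for 15 or more regions holds 792 regions in 39 clusters.

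At the edge of the rule, the 383 chains of 4 regions had a median span of 12.2 kb and a median region width of 644 bp, and the 647 chains of 3 regions, just outside it, had a span of 8.04 kb and a width of 591 bp. The median fold in chains of 4 was 6.34 in replicate 1 and 4.95 in replicate 2, against 6.09 and 4.69 in chains of 3. In median width and fold, chains of 4 thus differed little from chains of 3. Whether the threshold of 4 separates kinds of chain was not tested.

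Regions in clusters were wider than the other distal regions and differed little in enrichment. Their median width was 676 bp, against 564 bp for the other distal regions, and 1509 of them (21.9%) merged more than 1 peak of replicate 2, against 14.2% of the others. The median fold over input was 6.34 in cluster regions and 6.09 in the others in replicate 1, and 5.02 and 4.69 in replicate 2. These differences are small beside the spread within either set, since the interquartile range in replicate 1 was 4.57 to 9.13 for cluster regions and 4.57 to 8.37 for the others. Peak calls in both libraries chose the members, so the fold values are a description. Within the largest clusters the spread was wide: in chains of 15 or more regions the most enriched region had a median fold of 15.98 in replicate 1 and the least enriched 2.79, against 10.4 and 4.05 in chains of 4, where fewer regions give less range. The same region was the most enriched of its cluster in both libraries in 577 of 1071 clusters (53.9%, 50.9 to 56.8%). The most enriched region by lower fold was the one closest to a TSS in 224 clusters (20.9%, 18.6 to 23.5%), and the share would be 18.5% if every region of a cluster were equally often the closest.

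The first cluster lay around Cd9, which encodes a tetraspanin of the cell surface. It had 46 distal regions over 124 kb of chromosome 6 (125425510 to 125549644), covered 58.4 kb, and overlapped the bodies of Cd9 and of Vwf, the gene of von Willebrand factor. Cd9 was the nearest protein-coding gene of 38 of the 46 regions. The most enriched region (17.2-fold in replicate 1, 13.4-fold in replicate 2) lay 17473 bp downstream of the nearest Cd9 TSS. Among the cluster regions the fold ran between 2.66 and 18.01 in replicate 1, with a median of 6.13. In replicate 2 it ran between 2.97 and 13.4, with a median of 5.02. The region at 18.01 in replicate 1 contained a Cd9 TSS. Vwf is also an endothelial marker, and it was the 1 endothelial marker with a consensus region near a TSS.

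**Figure D2:**
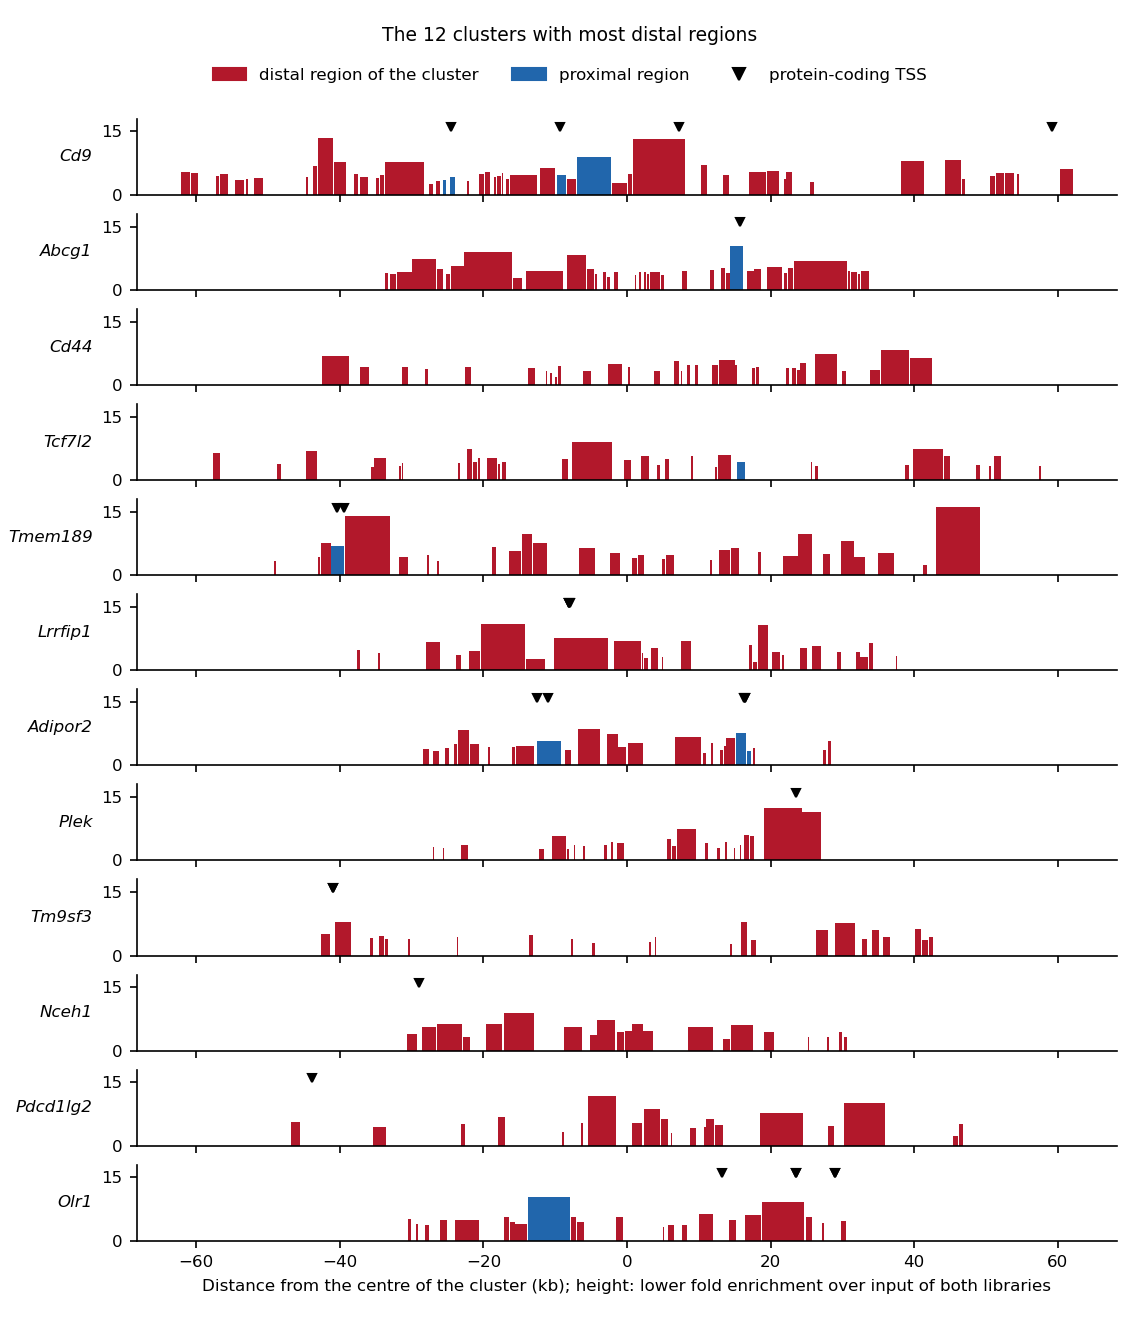
The 12 clusters with most distal regions, each drawn to the same scale by distance in kb from the centre of the cluster. Bar width is the width of a region and bar height the lower of its fold enrichments over input in replicates 1 and 2. Bars are red for distal regions of the cluster and blue for consensus regions within 1 kb of a TSS of any kind. Triangles mark TSSs of protein-coding genes. The Cd9 cluster spans 124 kb and holds 46 red bars, and in the Tmem189 cluster the highest bar lies at the far end from the TSSs.

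The genes leading the first 20 clusters are grouped here by known function, a grouping made after their names were seen and set against no background. The first group handles lipids, and of its genes only Abcg1 was on the list of lipid genes counted further on. The second cluster (36 regions, 67.3 kb, chromosome 17) lay over Abcg1, which encodes a transporter for the efflux of cholesterol, and 71.8% of its span was covered by regions. Its most enriched region reached 10.1-fold in replicate 1 and 8.91-fold in replicate 2, so that it was dense but of modest enrichment. Nceh1, the gene of a cholesteryl ester hydrolase of macrophages, held a cluster of 21 regions wholly within its body (61.3 kb, 58.2% covered, 11.9-fold and 8.91-fold at the strongest region). Olr1, the gene of the oxidised LDL receptor LOX-1, led a cluster of 21 regions over 60.9 kb. Its strongest region, which contained an Olr1 TSS, had 12.4-fold and 9.18-fold enrichment. That cluster also contained Clec7a, the gene of the beta-glucan receptor Dectin-1, which the annotation lists as a polymorphic pseudogene and which could therefore lead no cluster. Adipor2, the gene of an adiponectin receptor, led 23 regions over 56.9 kb.

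The next group consists of adhesion and cytoskeletal genes. Cd44 led the cluster ranked 3 (32 regions over 85.1 kb of chromosome 2, 102807201 to 102892272) and, beyond a gap wider than 12500 bp, a second one of 14 regions that overlapped no protein-coding gene. The strongest region of the first Cd44 cluster had 13.7-fold enrichment in replicate 1 and 8.37-fold in replicate 2, and that of the second had 21.8-fold and 12.2-fold, at -66605 bp from the nearest Cd44 TSS, where a negative value lies upstream. The upstream cluster thus had fewer regions and the higher enrichment in both libraries. Iqgap1, a scaffold of the actin cytoskeleton, held 18 regions wholly within its body, with 20.3-fold and 16.1-fold at the strongest. Nedd9, an adhesion scaffold of the CAS family, led 18 regions, with 22.1-fold and 14.7-fold at the strongest. Lrrfip1, which encodes a nucleic acid-binding protein that interacts with the actin regulator Flightless, held 27 regions wholly within its body, with 22.1-fold and 11.05-fold at the strongest.

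Signaling genes were next. Syk, the tyrosine kinase downstream of Fc and C-type lectin receptors, led 21 regions over 72.7 kb, and all 21 had Syk as their nearest gene. Plek, which encodes the protein kinase C substrate pleckstrin, led 23 regions, although it was nearest to 14 of them. The strongest reached 15.7-fold in replicate 1 and 12.4-fold in replicate 2, with its midpoint 1926 bp from the Plek TSS, which it contained. Pdcd1lg2, the gene of the PD-1 ligand PD-L2, led 21 regions over 93.6 kb. Akap13, an anchoring protein of protein kinase A, led 3 clusters with 38 regions in all, and its largest (19 regions) overlapped the gene without lying wholly within it. The 13 regions of that cluster that were nearest to Akap13 lay at least 51228 bp from its nearest TSS, and the strongest region was nearest to Klhl25. App, the gene of the amyloid precursor protein, held 19 regions wholly within its body, and its strongest region had 17.5-fold and 10.04-fold enrichment.

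Transcription factor genes stood in 3 of the first 20 clusters. Tcf7l2, a mediator of Wnt signaling, held 32 regions wholly within its body over 115 kb of chromosome 19 (15.98-fold and 9.04-fold at the strongest). The cluster ranked 5 (29 regions over 98.3 kb of chromosome 2, 167680080 to 167778428) is named for Tmem189, the nearest gene of 26 of its regions, and it also contained the body of Cebpb, the gene of C/EBP-beta. Its strongest region lay at the far edge of the cluster, at -85542 bp from the nearest Tmem189 TSS, with 18.7-fold enrichment in replicate 1 and 16.1-fold in replicate 2. The Tmem189 and Cebpb TSSs stood side by side, at -39.4 and -40.3 kb from the cluster centre. The name therefore turned on a small difference in distance. The cluster ranked 18 is named for Hes7, a repressor of the Hes family of Notch targets, but the name rests on few regions. Hes7 was nearest to 4 of the 18 regions, 8 genes were nearest to at least 1, and the span overlapped 9 protein-coding genes, among them Per1 of the circadian clock and Aurkb. The strongest region there (20.04-fold and 17.4-fold) was nearest to Aurkb, a mitotic kinase gene.

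In the clusters named for Tomm20 and Zfp36l2 the leading gene lay outside the cluster. The cluster named for Tomm20, a receptor of mitochondrial protein import, had 20 regions over 75.8 kb that overlapped no protein-coding gene and lay at least 44464 bp from the nearest Tomm20 TSS, with 18.5-fold and 10.04-fold at the strongest. The cluster named for Zfp36l2, an mRNA-decay factor, had 19 regions that lay at least 61526 bp away. The cluster named for Tm9sf3 (23 regions, 15 of them nearest to Tm9sf3) overlapped that gene and also Pik3ap1, the gene of the phosphoinositide 3-kinase adaptor BCAP. Nearest-gene names are positions and were not linked to expression here.

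**Figure D3:**
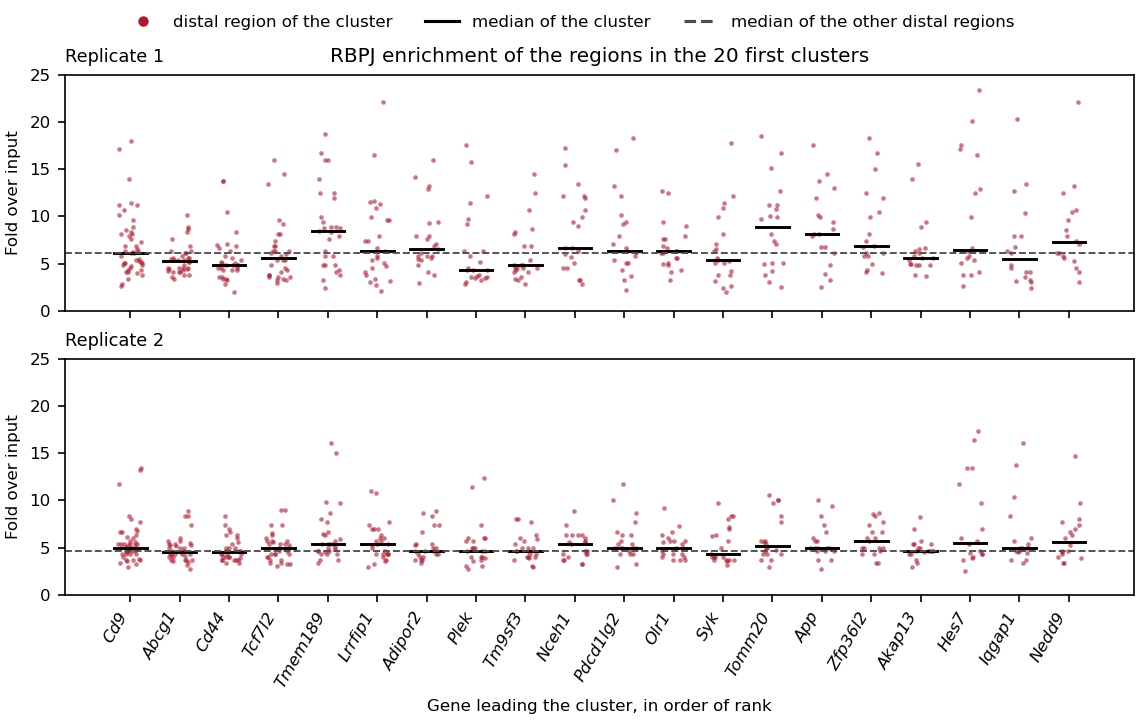
Fold enrichment over input of each distal region in the 20 first clusters, in replicate 1 (upper panel) and replicate 2 (lower panel). Points are regions, black lines cluster medians, and the dashed line is the median of the other distal regions (6.09 in replicate 1, 4.69 in replicate 2). Cluster medians lie on both sides of the dashed line, between 4.34 (Plek) and 8.90 (Tomm20) in replicate 1 and between 4.35 (Syk) and 5.69 (Zfp36l2) in replicate 2. Single regions stand far above the line, up to 23.3-fold in replicate 1 and 17.4-fold in replicate 2 in the Hes7 cluster. These are 2 different regions, and the one at 23.3-fold contains a TSS of Aloxe3.

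Ordering by covered bases brought forward clusters of few and very wide regions, chosen here after their values were seen. The cluster led by Frmd8 had 12 regions but 30.7 kb covered, and 1 region of it (chromosome 19, 5827682 to 5848917) had the highest fold of all cluster regions in both libraries, 29.9 in replicate 1 and 27.8 in replicate 2. That region was also the widest of all cluster regions, at 21236 bp. The Frmd8 cluster overlapped the long non-coding RNA gene Neat1, and the place of the region relative to the Neat1 TSS is not given here. Mcl1, an anti-apoptotic member of the Bcl-2 family, led 7 regions that covered 29.1 kb of a 32.0 kb span (91.02%), with 13.3-fold and 13.7-fold at the strongest region. That region contained an Mcl1 TSS, with its midpoint at -1124 bp.

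Some genes led several clusters. Of the 925 genes that led a cluster, 801 led 1, 107 led 2, 13 led 3, 3 led 4 and 1 led 5. The gene with 5 was Runx1, a factor of blood cell identity, with 33 regions between 92590198 and 93035163 on chromosome 16. Lpp, Sgms1 and Gm5426 led 4 each. Notch2, a receptor of the pathway in which RBPJ acts, led 3 clusters with 16 regions.

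Cluster regions lay in introns somewhat more often than the other distal regions. The share with the midpoint in an intron was 60.5% in clusters (59.3 to 61.6%) and 55.7% in the others (54.7 to 56.8%), the share in exons was 5.58% and 5.93%, and the intergenic share was 34.0% and 38.3%. Regions within 5 kb of a protein-coding TSS made up 27.0% of cluster regions and 33.2% of the others, and those within 50 kb 87.5% and 82.6%. Cluster regions were thus placed less often right beside a TSS and less often very far from one. The rule itself favours regions with neighbours, regions of 1 cluster share a locus, and the intervals treat them as independent, so these shares are a description. A TSS fell within the edges of 98 cluster regions (1.42%) and 64 of the others (0.728%), because the rule reads midpoints.

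Of the 1071 clusters, 411 (38.4%) lay wholly within the body of 1 protein-coding gene and 251 (23.4%) touched none. A protein-coding TSS fell inside the span of 471 clusters (44.0%), and a proximal consensus region inside that of 372 (34.7%). All regions of a cluster had the same nearest protein-coding gene in 819 clusters (76.5%), and the leading gene overlapped its cluster in 783 (73.1%). Most clusters could therefore be named by 1 gene.

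Of 21951 protein-coding genes, 925 led a cluster (4.21%), as did 18.8% of the 4931 genes that were nearest to at least 1 distal region, and 886 (4.04%) had a body that overlapped one. The shares of the macrophage lists were higher. Among AM identity genes 15 of 25 led a cluster (60%, 40.7 to 76.6%), or 62.5% of the 24 with a distal region. This count was 5 of 25 with −log10 q of at least 5 in both lists, where 1.33% of all protein-coding genes led a cluster. The largest was that of Plet1 with 16 regions, followed by Mrc1, the mannose receptor gene, and Chil3, a chitinase-like protein gene, with 12 each. In the Chil3 cluster the strongest region had 16.6-fold enrichment in replicate 1 and 18.7-fold in replicate 2. That region contained a Chil3 TSS, with its midpoint at -2232 bp. Of the pan-macrophage genes 11 of 21 led a cluster (52.4%), with Lgals3 (galectin-3) at 15 regions and Mpeg1 (perforin-2) and Lyz2 (lysozyme) at 10. Lyz2 shared its cluster with its neighbour Lyz1, a close copy.

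Regulatory, inflammatory and metabolic lists came next. Of the macrophage transcription factor genes 17 of 34 led a cluster (50%), and 5 did so with the stricter q. Spi1, the gene of PU.1, led 12 regions of even and modest enrichment (7.61-fold and 7.70-fold at the strongest). Fos with 11 regions reached 20.3-fold and 13.7-fold, and Fosl2 with 10 reached 15.98-fold and 15.7-fold. However, the strongest Fos and Fosl2 regions were wide and contained a TSS of the gene. Their midpoints lay 1047 and 1769 bp from it, and that of the strongest Spi1 region 4343 bp from the Spi1 TSS. Of the pattern recognition and cytokine genes 12 of 25 led a cluster (48%), with 10 regions each for Tlr2, Il1a and Tlr4. With the stricter q none of the 25 did so. Lipid genes reached 8 of 25 (32%), with Plin2, a lipid droplet coat protein gene, at 10 regions and Cd36, the fatty acid scavenger receptor gene, at 9 beside Abcg1. The lipid count was 3 with the stricter q and 16 without replicate 2, where 17.4% of all protein-coding genes led a cluster.

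Notch pathway genes led clusters less often than the macrophage lists by count and more often than all genes, and neither difference was tested. Of the Notch genes and RBPJ cofactors 7 of 34 led a cluster (20.6%, 10.3 to 36.8%), against 4.21% of all protein-coding genes. Among the 17 with a distal region the share was 41.2%, against 18.8% of all genes with one. The count was unstable, at 12 without replicate 1, 18 without replicate 2 and 1 with the stricter q, where the share of all genes was 7.31%, 17.4% and 1.33%. The members were Notch2 (8 regions in its largest cluster), the coactivator gene Maml1 (6) and the co-repressor gene Spen (6). The others were Adam10, the gene of the protease that sheds the Notch ectodomain (5), Numb (5), Maml3 (4) and Rbpj itself (4). The Adam10 cluster lay wholly within the neighbouring gene Lipc, with its strongest region 65173 bp from the Adam10 TSS, so that this name rests on position alone. The strongest Notch2 region, inside the gene, had 14.2-fold enrichment in replicate 1 and 9.37-fold in replicate 2. Of the canonical Notch targets 2 of 15 led a cluster (13.3%, 3.74 to 37.9%), an interval that contains the 4.21% of all genes. Among the 9 targets with a distal region the share was 22.2%, near the 18.8% of all genes with one. The 2 targets were Bcl6 (5 regions, 3 of them nearest to Bcl6) and Myc (2 clusters, the larger of 5 regions 69192 bp downstream at its strongest, with 17.3-fold and 15.1-fold). The count of targets was 5 without replicate 2 and 0 when 6 or more regions were required, where the share of all genes was 17.4% and 1.96%. Hes7 was on neither list.

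Of the niche signal receptors and effectors 4 of 20 led a cluster (20%), namely Ski and Skil, repressors of SMAD signaling, Tgfbr2, the type II TGF-beta receptor gene, and Csf2rb, the gene of the common beta chain of the GM-CSF receptor. That count was 8 without replicate 1, 11 without replicate 2 and 1 with the stricter q. The share of all protein-coding genes was 4.21% as reported, and 7.31%, 17.4% and 1.33% under these settings. Apoptosis genes reached 3 of 16 (18.8%), namely Mcl1, Cflar and Bcl2l11, and 6, 7 and 0 under the same settings. Housekeeping genes reached 4 of 16 (25%), with Actb at 8 regions, although 5 of the 16 had any distal region. So a high share was not limited to macrophage genes.

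Few listed genes of other cell types led a cluster. These lists are too small to set their shares apart from the 4.21% of all protein-coding genes. None of 14 T and B lymphocyte genes, 14 neuronal genes, 12 alveolar type II genes or 12 liver and muscle genes did so, which at these list sizes allows a share of up to 21.5% (14 genes) or 24.2% (12 genes) by the Wilson interval. The exceptions were Flt1, a VEGF receptor gene of endothelium (5 regions, 1 of 12 endothelial genes), Csf3r, the G-CSF receptor gene (4 regions, 1 of 11 neutrophil genes), and Nr4a1, an orphan nuclear receptor gene of patrolling monocytes (9 regions, 1 of 13 monocyte genes). The shares of these lists were 8.33%, 9.09% and 7.69%, each above that of all genes. Without replicate 2 the counts were 2 for lymphocyte, 1 for alveolar type II, 3 for endothelial, 2 for neutrophil and 3 for monocyte genes, and without replicate 1 the monocyte count was 3. Over all protein-coding genes the share was 17.4% without replicate 2 and 7.31% without replicate 1.

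**Figure D4:**
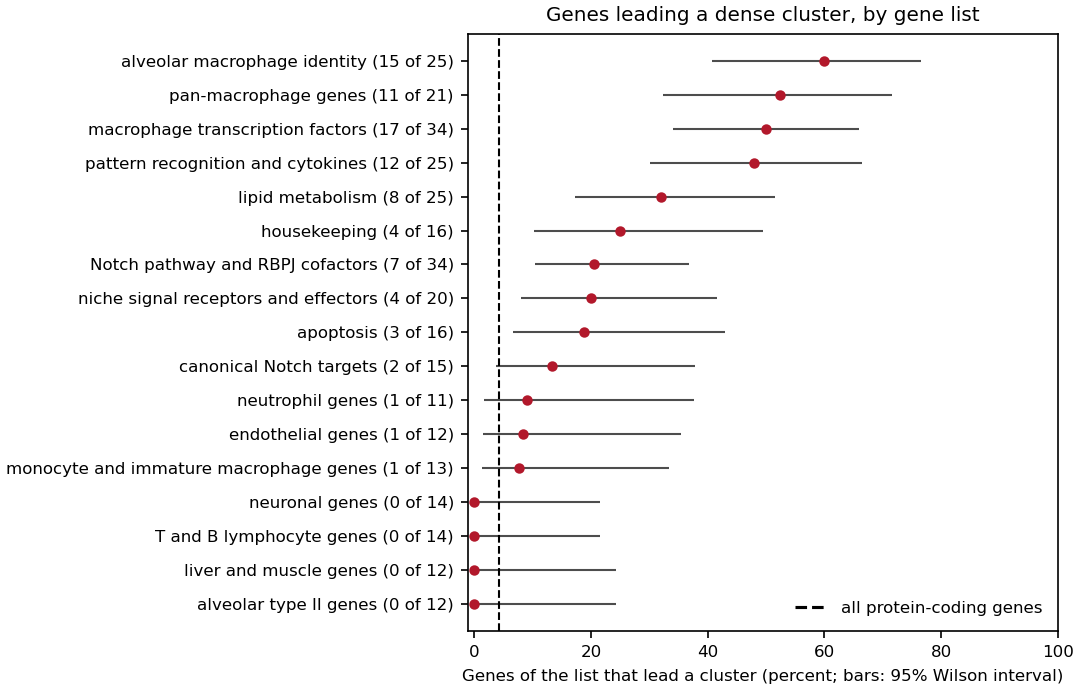
Percent of the genes of each list described here that led a cluster, with 95% Wilson intervals (bars) and the counts beside the names. Over all protein-coding genes the share was 4.21% (dashed). AM identity, pan-macrophage and macrophage transcription factor genes stand at 50% or more, and 4 lists of other cell types stand at 0.

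Gene size and promoter occupancy moved with leading a cluster. The 925 leading genes had a median body of 44.7 kb, against 30.9 kb for genes with a distal region that led none and 17.4 kb for all protein-coding genes. A consensus region lay within 1 kb of a TSS of 82.5% of the leading genes, against 60.6% and 34.7% of these. The macrophage lists were short in body (median of 10.99 kb for AM identity genes and 12.1 kb for pan-macrophage genes) but occupied at the promoter (92% and 90.5%), as were housekeeping genes (6.64 kb and 87.5%). The Notch list combined a median body of 46.5 kb with a promoter share of 76.5%. The part of gene size and of gene activity in these counts was not tested.

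The loci that the study displays for RBPJ and its partners fell on both sides of the rule. Zeb2, a repressor gene of macrophage identity, was nearest to 21 distal regions, but these were spread so that its only cluster had 4. Itgax, the CD11c gene, held 5 regions wholly within its body (15.98-fold and 9.37-fold at the strongest). Tgfbr2 led 3 clusters with 14 regions, Cd36 led 9 regions, Abca1, a cholesterol transporter gene, led 7 and Cdh1, the E-cadherin gene, led 6. Ppt1, a lysosomal thioesterase gene, lay in a cluster of 6 led by its neighbour Cap1. The RXR-alpha gene Rxra had 4 distal regions whose longest chain was 3, Mmp8 had 1, and Rxrb, Csf2rb2 and Casp4 had none, so that none of these led a cluster. Only distal regions of both lists were counted, each for the gene with the nearest TSS. Proximal regions, peaks of 1 list and regions nearer to another gene are left out. The counts therefore do not bear on the RBPJ peaks that the study reports at the Rxra and Rxrb loci.

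The letters near the summits differed between clusters and the other distal regions for some factors and not for RBPJ. Each distal region was scanned on both strands within 100 bp of its summit, and windows 1000 bp away that touched no peak served as flanks. The RBPJ letters TGGGAA stood in 19.4% of cluster regions (18.5 to 20.4%) and 18.8% of the other distal regions (18.01 to 19.6%), and in 18.4% of the flanks of cluster regions (17.3 to 19.5%). The same letters read backwards, a control for base composition, stood in 10.7% of cluster regions and in 9.58% of their flanks. The longer form GTGGGAA, which contains the shorter one, stood in 4.71% and 4.62%, and in 3.93% of the flanks. By this measure cluster regions held the RBPJ letters about as often as the other distal regions and little more often than the sequence beside them. Median GC was 44.3% in both sets of regions and 47.3% in the flanks of clusters.

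The PU.1 letters GAGGAAGT stood in 6.64% of cluster regions (6.07 to 7.25%) and 9.21% of the other distal regions (8.63 to 9.83%), against 0.641% of the flanks of clusters. C/EBP letters stood in 15.4% and 18.01%, against 6.68% of the flanks, and RUNX letters in 7.96% and 9.66%, against 4.74%. These 3 were lower in cluster regions than in the others and above the flanks in both. Without replicate 1 the order turned for PU.1 (4.58% in cluster regions and 4.55% in the others) and for RUNX (7.08% and 6.55%), so that it held in both single lists for C/EBP alone. AP-1 letters stood in 10.95% and 11.6%, with overlapping intervals, against 5.30% of the flanks. The nuclear receptor half-site AGGTCA stood in 14.9% of both sets, and the direct repeat GGTCANAGG read by RXR dimers in 1.89% and 1.64%. The GGGNGGG letters of KLF factors were the reverse case, at 15.03% and 14.3% against 18.8% of the flanks.

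Across chain sizes the PU.1 share went down step by step. It was 10.5% in single distal regions, 8.14% in chains of 2 or 3, 6.94% in chains of 4 to 6, 6.61% in chains of 7 to 14 and 5.43% in chains of 15 or more (4.06 to 7.23%). C/EBP letters followed the same order, at 19.0%, 17.2%, 16.4%, 14.99% and 12.2%. RBPJ letters had no such order, at 19.0%, 18.6%, 20.1%, 18.7% and 19.1%. Among the cluster sizes the PU.1 intervals overlapped (6.14 to 7.85%, 5.73 to 7.61% and 4.06 to 7.23%). A fall of PU.1 with cluster size was therefore not resolved. For C/EBP the interval of chains of 15 or more (10.1 to 14.7%) lay below that of chains of 4 to 6 (15.2 to 17.7%). AP-1 letters stood in 11.6% of regions in chains of 4 to 6 (10.5 to 12.7%) and 8.21% in chains of 15 or more (6.49 to 10.3%). The RBPJ share stayed within 2 percentage points. Whether these orders hold in either list alone was not tested. Cluster regions are also wider and more often made of several peaks, and the 200 bp window covers less of a wide region, and the part of this in the shares was not tested.

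**Figure D5:**
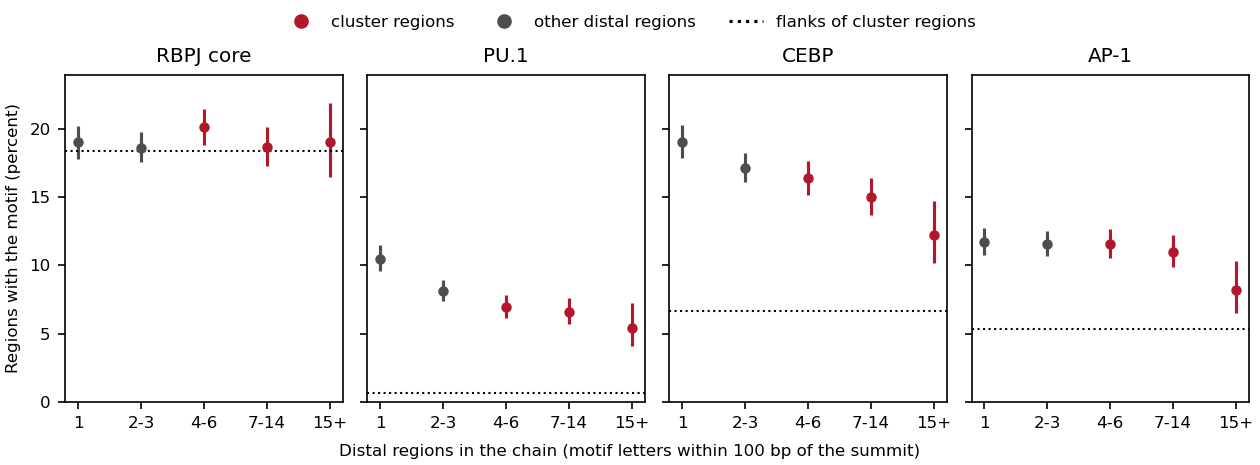
Percent of distal regions with the letters of RBPJ, PU.1, C/EBP or AP-1 within 100 bp of the summit, by the number of distal regions in the chain, with 95% Wilson intervals. Red points are cluster regions, grey points other distal regions, and the dotted line is the share in the flanks of cluster regions. PU.1 ends at 5.43% and C/EBP at 12.2% in chains of 15 or more, and RBPJ stays near its flank share of 18.4%.

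Within clusters the same letters were more frequent at the more enriched regions. Cluster regions were divided at the quartiles of lower fold. In the lowest and the highest of the 4 groups, PU.1 letters stood in 4.30% and 9.70%, C/EBP letters in 11.3% and 21.8% and AP-1 letters in 7.32% and 15.5%. RBPJ letters stood in 17.9% of the lowest group and 19.5% of the highest, with 19.1% and 21.3% in between. Over whole clusters, 755 of 1071 (70.5%) had at least 1 region with TGGGAA, 669 (62.5%) with C/EBP letters, 538 (50.2%) with AP-1 letters and 368 (34.4%) with PU.1 letters. In the Cd9 cluster 6 of 46 regions held TGGGAA, 6 C/EBP, 6 AP-1 and 2 PU.1 letters, in the Tmem189 cluster 10 of 29 held TGGGAA and none PU.1 letters, and in the Nceh1 cluster none of 21 held TGGGAA and 4 held C/EBP letters. These counts differed between the 3 clusters but are small, and whether they differ by more than counting error was not tested. Among the first 20 clusters Nceh1 alone had no region with TGGGAA, and Abcg1 had 5 of 36 and Tcf7l2 5 of 32.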

How the data were processed

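HT-ChIPmentation of RBPJ was available for 2 libraries of AMs. Per the submitters' processing notes, bcl2fastq 2.20.0.422, CASAVA, Cutadapt, Bowtie2, SAMtools and MACS3 were used and the build was mm10. The authors called peaks for each library with MACS3 against input at a q of 0.05. The deposited peak lists give, for each peak, a fold enrichment over input (a linear ratio), p and q values as −log10, and a display score. The score and the p were not used, and read depth is unknown, so no interval for a fold could be given.

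From these lists, peaks overlapping by at least 1 bp were merged, and TSSs of all transcripts were taken from GENCODE vM21 (no peak ran beyond a chromosome end). The fold of a region in a library is that of its highest peak there. Genes were named by the nearest protein-coding TSS, and the gene nearest to most regions leads a cluster. Letters were counted up to 100 bp to each side of 1 summit per region, taken from whichever library gave the higher fold. Intervals are 95% Wilson intervals. Named in the text are the genes leading the 20 first clusters, loci the study displays, up to 3 leading genes for each of 18 lists (all, up to 4, for other cell types), and genes said to have been chosen afterwards. The result of 1 list and of 1 gene is not reported here. Members, lists and 18 motifs were chosen with earlier results of these data known. No test was made: the rule used the peaks of both libraries. The software was Python 3.11.15 with pandas 2.3.3, matplotlib 3.10.9, SciPy 1.17.1 and numpy 2.4.6, and the chaining and scanning steps were tested on simulated data. A set of 15 alternative settings concerned gap, size, TSS set, overlap, q, replicate, window and naming, and 1 was added after seeing the data.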

Additional observations from a re-analysis of the deposited data

How the results depend on the processing

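The number of clusters (1071 as reported) moved most with replicate 2 left out, and was between 1997 and 4985 with 1 list alone. It was 307 with −log10 q of at least 5 in both lists, 344 with summits within 100 bp, 470 with 6 or more regions and 1718 with 3 or more. Leading genes numbered 608 with a largest gap of 5 kb, 430 with 6 or more regions, 291 with the stricter q, 333 with summits within 100 bp, and between 1604 and 3825 with 1 list. Median span was 9.965 kb (gap 5 kb), 32.7 kb (gap 25 kb), 13.7 kb (3 or more regions), 26.8 kb (6 or more), 16.9 kb (distal over 3 kb), 20.5 kb (stricter q) and between 15.8 and 17.4 kb with 1 list. The share in protein-coding gene bodies (59.3%) was 60.7% (gap 5 kb), 57.8% (3 or more regions, and protein-coding TSSs only), 57.2% (distal over 3 kb, and stricter q), 61.4% (basic TSSs), 60.8% (summits within 100 bp) and between 58.1 and 60% with 1 list. The share of distal regions in clusters was between 47.3 and 81.1% with 1 list, the median lower fold 6.02 with the stricter q and between 4.06 and 4.64 with 1 list, and TGGGAA stood in 10.4% of 50 bp windows and in 17.1 to 19.6% with 1 list.

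Cd9 led the first cluster except with gaps of 5 kb (Abcg1) or 25 kb (Pik3ap1) and with replicate 2 left out (Nedd9). Between 8 and 20 of the first 20 leading genes stayed among the first 20. With the stricter q, AM identity genes fell to 5 of 25 and pattern recognition genes to 0 of 25, where 1.33% of all genes led a cluster. PU.1 letters were lower in cluster regions than in the others under 14 of 15 alternatives and reversed without replicate 1 (4.58% and 4.55%), RUNX letters likewise (14 of 15, 7.08% and 6.55% without replicate 1), and C/EBP letters were lower under 15 of 15. After shortening the list of replicate 1 to the length of that of replicate 2, chosen after seeing the data, 768 clusters remained. No paired analysis was possible because the input libraries have no values of their own and no result comes from a test. Depth is unknown, and with 2 libraries no spread between animals can be given.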
